A study of Homo sapiens with 12 samples.

Results

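Glycolysis breaks glucose down to pyruvate, and cells that are short of oxygen raise it together with a set of genes under the hypoxia-inducible factors. Described here are 40 genes of these pathways, named as a list and matched by symbol to the Ensembl identifiers of the count tables, in which they are 40 of 58302 genes. The list covers glucose and lactate transporters, the glycolytic enzymes, lactate dehydrogenases and the kinases that restrain mitochondrial pyruvate use, and further genes that are known to be induced when oxygen is low. It was selected on earlier results of these data, in which genes of these pathways differed between genotypes and stages. Its counts are therefore descriptions, given beside the same counts over all genes tested, and no further test of the list was made. The adjusted p of a member comes from the fit over all genes and describes that gene, and it does not support the choice of the list. Of the 40 genes, 39 averaged 20 or more counts per sample and were tested among 13454 genes. The other, CA9, a carbonic anhydrase of the cell surface that is a classic hypoxia gene, had at most 5 counts in any sample.

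RNA was sequenced from H1 cells, a human embryonic stem cell line, in 6 groups of 2 samples. Wild-type (WT) cells and cells lacking both H3K27 demethylases (dKO, the genotype JMJD3-/-/UTX-/Y) were each taken as neural progenitor cells (NPCs) at passage 2, as NPCs at passage 4, and after 28 days of differentiation (WT-D28 and dKO-D28). The 2 demethylases, encoded by KDM6B (JMJD3) and KDM6A (UTX), remove a repressive methyl mark from histone H3, and the question was what their loss does to the progenitors and to their differentiation. Passage 4 and day 28 are named by the sample labels, whereas passage 2 of the remaining NPCs was taken from the study's text.

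The NPCs were grown as neural spheres in medium with the growth factors bFGF and EGF. The day 28 cells were derived from passage 2 NPCs plated on Matrigel, in medium without these factors but with GDNF, BDNF and cAMP. Differentiation and these culture conditions therefore cannot be told apart. The paper also reports that mutant NPCs formed fewer spheres at later passages, and the part of this in the values was not tested. The dKO cells come from puromycin-selected stem cell clones, and both demethylase genes lost catalytic sites rather than the whole gene, so that their transcripts still give reads. KDM6A was lower in dKO than in WT NPCs without overlap at passage 2, where it was not called (39.1 and 38.3 against 60.3 and 53.5 CPM, log2 change -0.54 ± 0.28, adjusted p = 0.381), and at passage 4, where it was (31.4 and 27.3 against 49.8 and 53.3 CPM, log2 change -0.81 ± 0.22, adjusted p = 0.00691). At day 28 it overlapped, with 58.4 and 31.9 CPM in dKO and 43.7 and 48.4 CPM in WT cells. KDM6B was higher in dKO NPCs at passage 4 (log2 change 0.61 ± 0.11, adjusted p = 0.00022) and lower in dKO-D28 cells (log2 change -0.40 ± 0.10, adjusted p = 0.00387). Reads over whole genes do not measure the lost sites, so these levels check the labels only weakly. No batch is named in the labels, so groups and batches, if there were any, cannot be told apart. They do not state whether the 2 samples of a group were separate cultures, so p-values measure only the spread between these samples, which may be technical.

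Total counts ranged from 756942 to 10601172 per sample and were lowest at passage 2 (at most 1438807), where the floor of 3 counts corresponds to 2.09 to 3.85 CPM, against 0.298 to 0.990 CPM in the other samples. These floors cover counting error only. Neuron markers (9 genes, none at 0 in any group) summed to 4491 and 5093 CPM in WT NPCs at passage 4 and 3894.5 and 3876 CPM in WT-D28 cells, but to only 642 to 1155.5 CPM in the dKO samples at any stage and 1435 and 1242.5 CPM in WT NPCs at passage 2. Cycling markers (8 genes, none at 0) summed to 469 and 488 CPM in WT-D28 cells and 1586 and 2042.5 CPM in dKO-D28 cells, and to 1231 to 2086 CPM in NPCs. Mesenchymal markers (8 genes, of which 1 or 2 were at 0 in both samples of WT NPCs and dKO NPCs at passage 2 and of WT-D28 cells) summed to 155 to 385 CPM in WT samples, 875 and 1061 CPM in dKO NPCs at passage 2, 1714 and 1736 CPM in dKO NPCs at passage 4, and 431 and 294 CPM in dKO-D28 cells. Collagens made up most of the mesenchymal sum of dKO NPCs at passage 4. There COL1A1 had 504 and 518 CPM, COL1A2 794 and 791 CPM, and COL3A1 351 and 348 CPM. PDGFRB had 28.6 and 38.6 CPM there, against 41.9 and 39.1 CPM in WT NPCs. At day 28, COL3A1 and PDGFRB were lower in dKO cells (log2 change -2.10 and -1.81), and COL1A1, COL1A2 and LUM were higher. The mesenchymal sum therefore does not stand for that cell type. The share of these cell types in the values below was not tested, and in bulk samples fewer cells of a type and less RNA per cell cannot be told apart.

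The 2 dKO-D28 samples stood apart from each other. Between samples of a group, the chi-square per degree of freedom over genes was 14.1 for dKO-D28 and 1.57 to 3.31 for the other groups. In dKO-D28 cells, 34 of 39 tested members were higher in sample 1, with a median log2 ratio of 0.51 against 0.0014 over all genes, and 9 members differed by more than 2-fold, against 5.23% of all genes. ALDOC, the brain aldolase, was 5.41-fold higher in sample 1, the carbonic anhydrase CA12 3.93-fold, the lactate exporter SLC16A3 2.86-fold and the glycolytic kinase PGK1 2.40-fold. The glucose transporter SLC2A3 went the other way and was 2.05-fold higher in sample 2. Marker sums differed too: neuron markers were 1155.5 and 642 CPM in samples 1 and 2. The astrocyte marker sum differed through GJA1, which made up most of it and had 246 and 738 CPM. Other astrocyte markers did not show such a difference: SLC1A2 had 13.4 and 9.50 CPM, GFAP 5.01 and 6.84, AQP4 1.67 and 1.52, and S100B 1.19 and 0. ALDH1L1 and AGT were lower still, so GJA1 does not stand for that cell type. Day 28 results of the members are therefore given for dKO-D28 with and without each of these samples where a call depends on them. For genes of the other lists, day 28 results are given with both samples only.

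**Figure D1:**
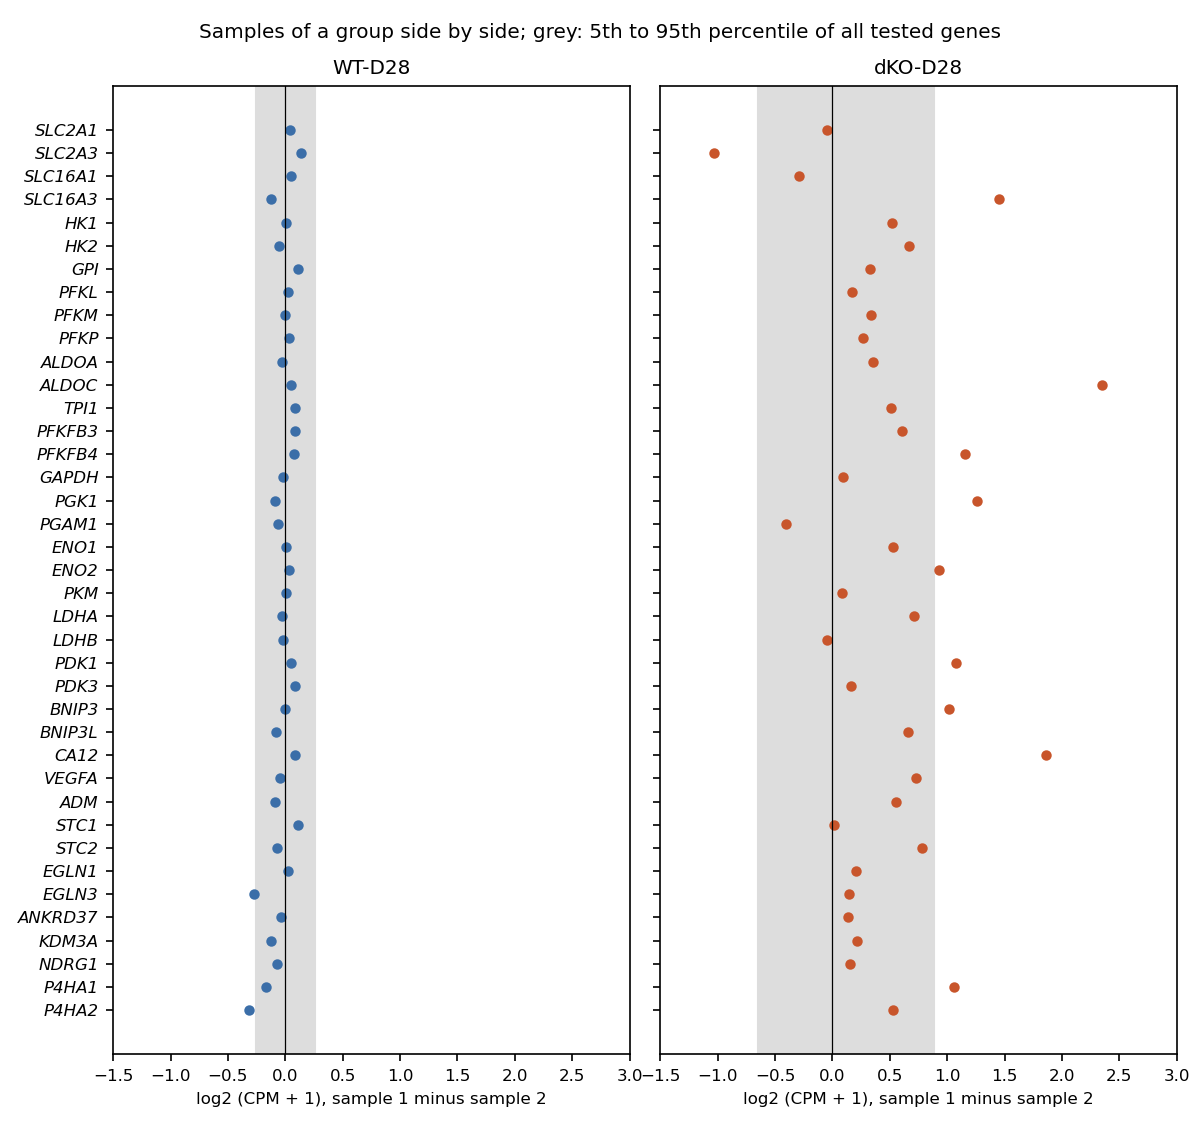
Difference between the 2 samples of WT-D28 (left, blue) and of dKO-D28 (right, orange) for the 39 tested genes, as log2(CPM + 1) of sample 1 minus sample 2 on the horizontal axis; the grey band spans the 5th to 95th percentile of all 13454 tested genes. In dKO-D28, 34 of 39 genes lie to the right of 0 and 9 lie above the band, while in WT-D28 none lies above it.

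Under low oxygen, the factors HIF1A and EPAS1 are spared from prolyl hydroxylation and degradation, pair with ARNT, and bind promoters and enhancers at the core letters ACGTG or GCGTG. Their targets import glucose, speed its breakdown to lactate, restrain mitochondrial pyruvate use and secrete vessel-active hormones. Neural progenitors are known to rely on glycolysis, and neurons to shift towards oxidative metabolism and towards their own isozymes of several glycolytic steps.

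Promoter stretches of 5 members called at passage 4, 2 lower and 3 higher in dKO NPCs, show how the number of these core letters varied. They were picked after the values were seen and do not stand for the other members. They are the stretches of their genes with the most matches. They are 100 bases of RefSeq sequence (GRCh38.p14) that lie before the annotated start and outside exons, written 5′ to 3′ on the strand of the gene, with each match to ACGTG or GCGTG on either strand in capitals. BNIP3 lies at chr10:131982018-131982117 on the minus strand, LDHA at chr11:18394400-18394499 on the plus strand, ADM at chr11:10304882-10304981 on the plus strand, STC2 at chr5:173328565-173328664 on the minus strand and SLC2A1 at chr1:42958949-42959048 on the minus strand.
BNIP3: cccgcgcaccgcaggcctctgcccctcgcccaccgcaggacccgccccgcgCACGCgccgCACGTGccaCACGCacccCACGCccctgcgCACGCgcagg
LDHA: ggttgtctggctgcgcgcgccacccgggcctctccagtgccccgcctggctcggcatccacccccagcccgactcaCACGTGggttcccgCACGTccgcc
ADM: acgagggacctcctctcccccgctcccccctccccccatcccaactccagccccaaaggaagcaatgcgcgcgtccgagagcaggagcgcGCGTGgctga
STC2: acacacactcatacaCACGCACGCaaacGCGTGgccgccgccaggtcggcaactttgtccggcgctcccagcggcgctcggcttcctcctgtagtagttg
SLC2A1: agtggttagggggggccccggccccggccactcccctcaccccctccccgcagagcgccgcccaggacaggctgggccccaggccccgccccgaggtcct
The genes themselves (hg38, GENCODE v44) are BNIP3 (ENSG00000176171) at chr10:131967684-131981967, LDHA (ENSG00000134333) at chr11:18394560-18408425, ADM (ENSG00000148926) at chr11:10305073-10307397, STC2 (ENSG00000113739) at chr5:173314723-173328447 and SLC2A1 (ENSG00000117394) at chr1:42925353-42958893. BNIP3 holds 6 matches and LDHA 3, where the palindrome CACGTG counts on both strands, ADM holds 1, STC2 3 and SLC2A1 none in these stretches. The stretch chosen in the same way for PDK1, also lower at passage 4, held 0 and is not printed. Among the windows of 250 bases before to 50 after each start, 34 of 40 members had 61 windows, of which 68.9% held a match, against 48.4% of all 35116 windows. A match was held by 56.2% of the 32 windows of members lower in dKO NPCs at passage 4, by 4 of 5 windows of those higher, and by 82.6% of the 23 windows of members not called there. These are shares of windows and not of genes. HK1 and PFKM, both lower there, had many windows each, some overlapping and most without a match. Windows of the same gene are not independent, so no difference between these sets of members is drawn from the shares. The 1 window of EGLN3 held 0 matches, and the 2 windows of PDK1 held 0 and 2. The members' windows had a median GC content of 68%, against 58.7%, and both motifs hold mostly G and C, so the comparison is not matched for base composition. Windows for NDRG1, BNIP3L, SLC2A3, SLC16A1, VEGFA and STC1 were not in the table. A match is a match of letters and not a measured binding site.

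Compared per kilobase of exon, which allows levels of different genes to be set beside each other, GAPDH was the highest member in every group (790 to 1172 CPM per kb as group means). LDHB, ENO1, TPI1, PKM and ALDOA each lay between 73.3 and 237 CPM per kb. In WT NPCs at passage 2 the glucose transporter SLC2A1 ranked 7th at 103 CPM per kb, and in WT NPCs at passage 4 it ranked 22nd at 12.1 CPM per kb. EGLN3, PDK3 and CA9 stayed at or below 1.81 CPM per kb in every group.

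**Figure D2:**
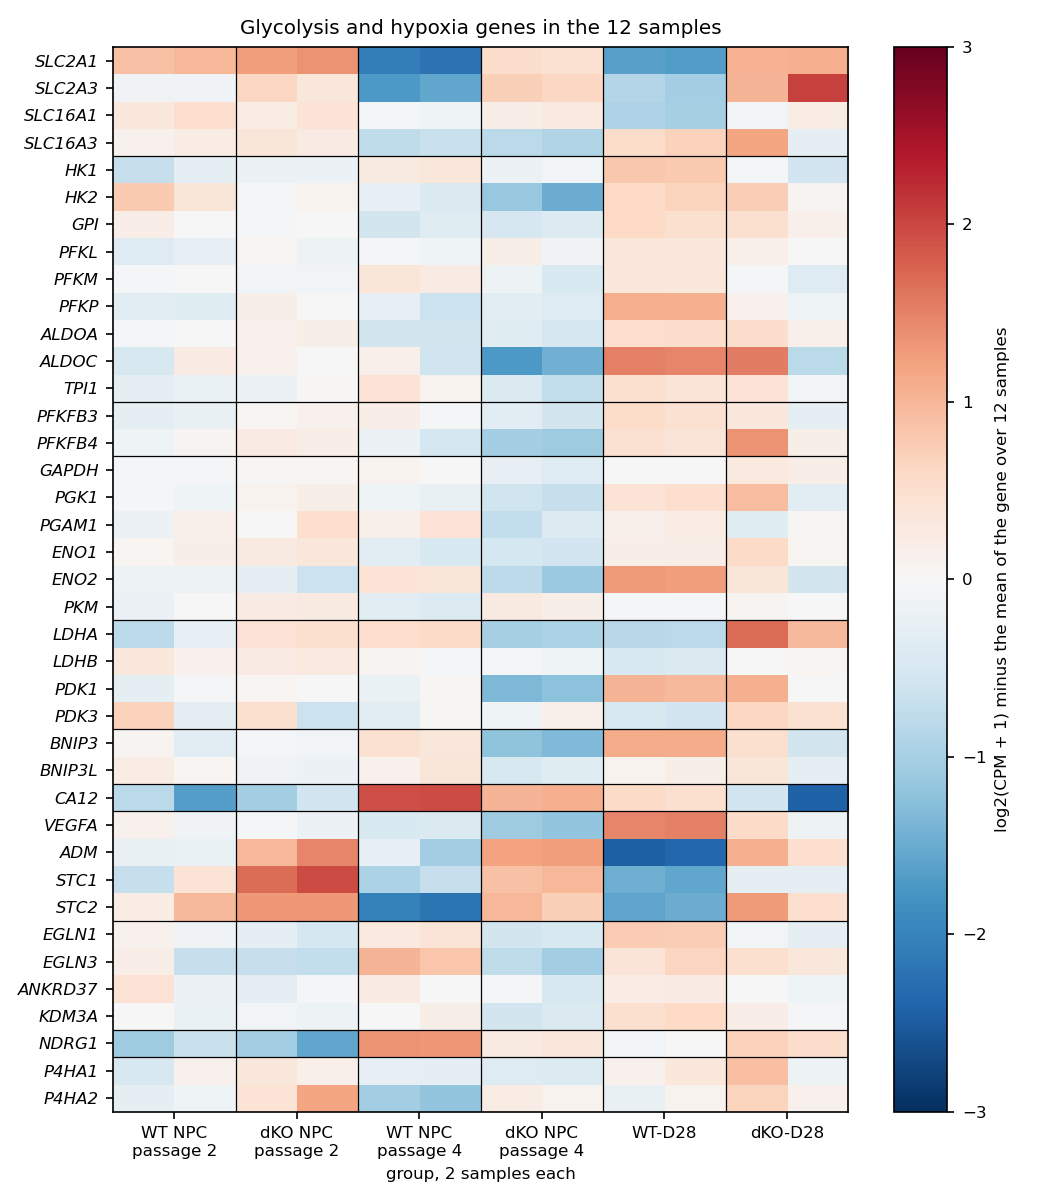
Level of each of the 39 tested genes (rows, ordered by role with lines between roles) in the 12 samples (columns, 2 per group), as log2(CPM + 1) minus the mean of the gene over the 12 samples; red is above and blue below that mean. SLC2A1, SLC2A3, ADM, STC1 and STC2 are low in WT cells of passage 4 and day 28, and many enzymes are lowest in dKO NPCs at passage 4.

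At passage 2, WT and dKO NPCs differed in few of these genes. Only STC1, a secreted glycoprotein of calcium and phosphate balance, was called: it was higher in dKO NPCs, and 0 members were lower. That is 2.56% of 39 members, against 2.77% of all genes (1.78% higher, 0.989% lower). Here and below, a gene was called at an adjusted p below 0.05 by the quasi-likelihood test of edgeR after Benjamini-Hochberg adjustment over all 13454 genes, and a log2 change is the fitted log2 fold change ± its standard error. In a comparison of genotypes, a rise or fall means higher or lower in dKO than in WT cells at that stage. STC1 had 21.8 and 48.4 CPM (WT) against 117 and 143 CPM (dKO), with no overlap (log2 change 1.79 ± 0.23, adjusted p = 0.00124). The median over the members was 0.17 (log2), against 0.0035 over all genes. Counts at this stage are low: the adrenomedullin gene ADM, for example, rested on 5 and 9 counts in WT NPCs and 22 and 33 in dKO NPCs (log2 change 1.59 ± 0.43, adjusted p = 0.0596). Fitted on the passage 2 samples alone, 7 members passed as higher, and 7 also passed when either dKO-D28 sample was left out of the shared fit.

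At passage 4 most members differed between genotypes. In dKO NPCs 8 members were higher and 17 lower, together 64.1% of 39, against 49.6% of all genes called in this comparison (25.3% higher, 24.3% lower). With a 2-fold change required as well, 6 were higher and 6 lower, against 11% and 11.1% of all genes. The members' median was -0.43 and that of all genes 0.020. By role, 3 of 4 transporters and 3 of 4 secreted factors were higher in dKO NPCs, while of the 21 enzymes and regulators from hexokinase to the pyruvate dehydrogenase kinases 10 were lower and only PKM was higher. When each sample was left out in turn, the calls of SLC16A1 and HK1 were lost in 4 of 12 fits, those of PDK1, PFKFB3 and VEGFA in 2, and those of BNIP3L and GAPDH in 1, and the other 18 calls were kept.

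At day 28 both directions were about equal: 11 members were higher and 10 lower in dKO-D28 than in WT-D28 cells, 53.8% of 39 against 54.2% of all genes (27.5% higher, 26.7% lower). Past 2-fold, 8 were higher and 6 lower, against 12.4% and 11.7% of all genes. The members' median was -0.12 and that of all genes 0.0026. The lower count was 21 when dKO-D28 sample 1 was left out, and the higher count was 17 when sample 2 was left out. All 21 called members kept their direction without either sample; 2 calls were lost, that of GAPDH without sample 1 (0.19, adjusted p = 0.0908) and that of PFKFB3, a regulator of phosphofructokinase, without sample 2 (-0.20, adjusted p = 0.166). SLC2A1 was 2.74 without sample 1 and 2.70 without sample 2 on the log2 scale, ADM 4.07 and 4.67, STC2 2.24 and 3.04, and LDHA 1.81 and 2.52. Among the members that were lower in dKO-D28 cells, ENO2 was -1.82 and -0.88, VEGFA -1.64 and -0.91, HK1 -1.37 and -0.84 and PFKP -1.23 and -0.95. The share of members called lay near that of all genes at passage 2 and day 28.

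**Figure D3:**
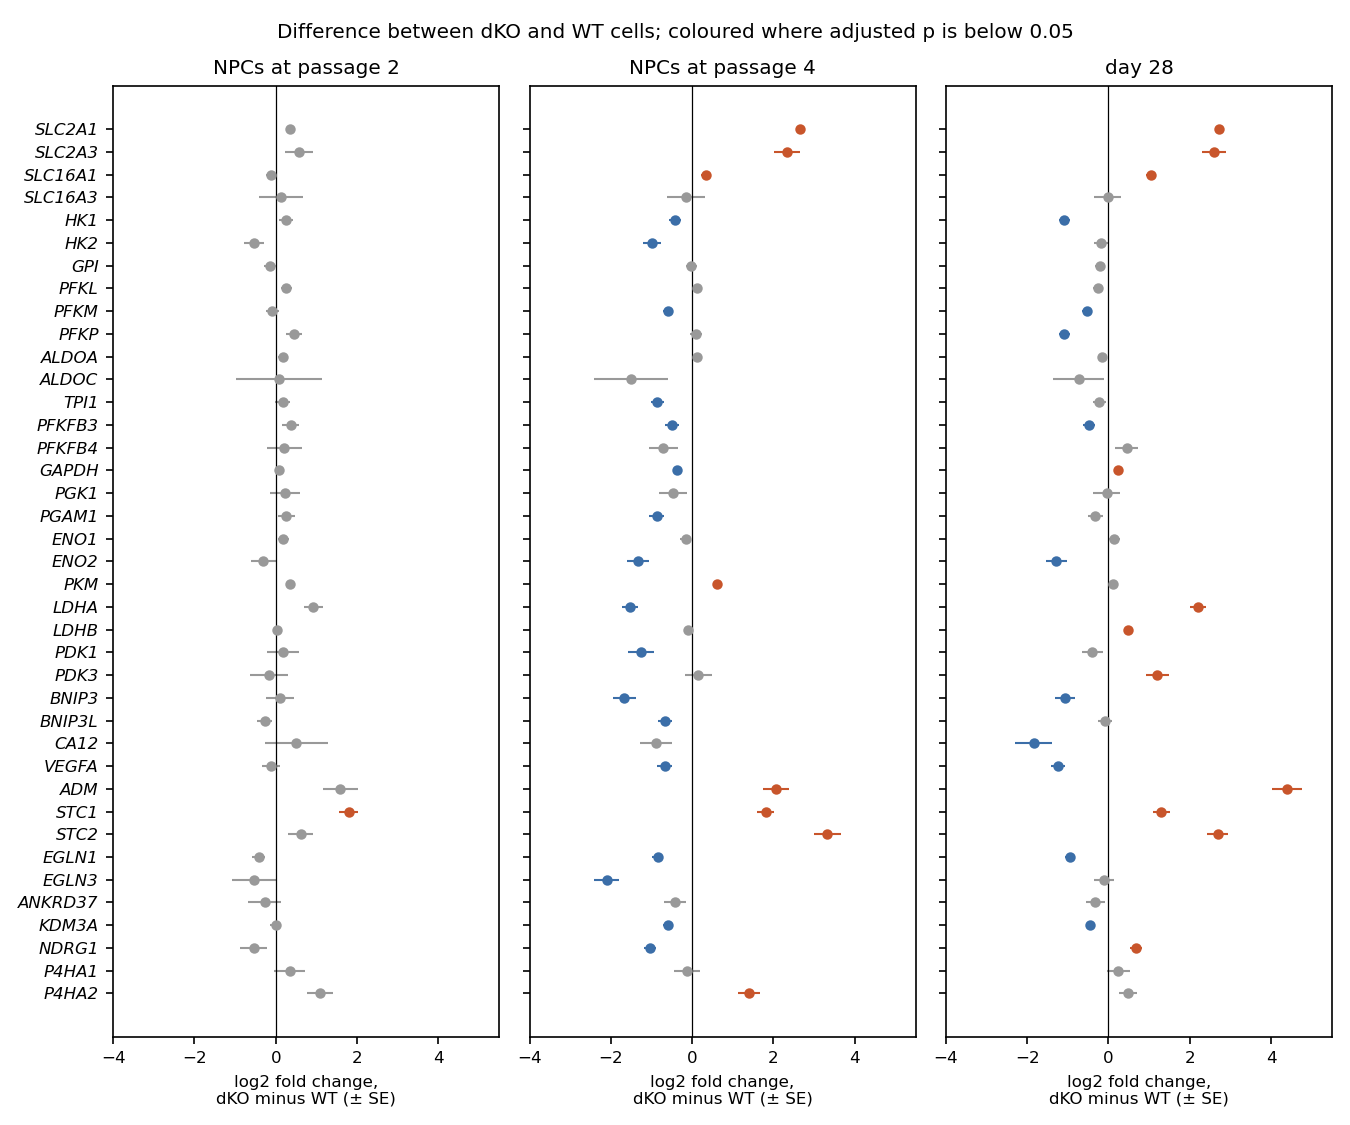
Log2 fold change of dKO minus WT cells (points, with SE as bars) for the 39 tested genes at passage 2, passage 4 and day 28; orange marks genes called higher, blue genes called lower at adjusted p below 0.05, and grey the others. At passage 4, 8 genes are orange and 17 blue, at day 28 11 are orange and 10 blue, and at passage 2 only STC1 is coloured.

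The passage 2 NPCs are the starting point of both the passage and the differentiation comparisons, so these comparisons share samples with those between genotypes and with each other. In WT cells, 15 members were higher and 6 lower at day 28 than in passage 2 NPCs, 53.8% of 39 against 46.2% of all genes (23.2% higher, 22.9% lower), with a median of 0.42 against 0.038. In dKO cells only 3 were higher and 1 lower, 10.3% against 9.55% of all genes (4.30% higher, 5.25% lower), with a median of 0.20 against 0.014. Without dKO-D28 sample 2, 18 members were higher in dKO-D28 cells, and without sample 1, 8 were lower, so this count depends on which dKO-D28 samples enter the fit. From passage 2 to passage 4, 6 members were higher and 11 lower in WT NPCs, 43.6% against 38.1% of all genes (19.0% higher, 19.1% lower), with a median of -0.10 against 0.014. In dKO NPCs 1 was higher and 16 lower, 43.6% against 19.6% of all genes (8.35% higher, 11.2% lower), with a median of -0.46 against 0.0057. The dKO count of 16 was 6 to 9 when either dKO NPC sample of passage 2 or of passage 4 was left out and 25 when either dKO-D28 sample was.

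Both glucose transporters were higher in dKO than in WT cells at passage 4 and at day 28. SLC2A1 (GLUT1, the general glucose transporter) had 653 and 703 CPM (WT) against 843 and 903 CPM (dKO) at passage 2. At passage 4, SLC2A1 had 83.5 and 75.9 CPM (WT) against 514 and 485 CPM (dKO). At day 28, SLC2A1 had 114 and 111 CPM (WT) against 729 and 752 CPM (dKO). WT cells thus lay far below every other group at passage 4 and at day 28. The fall in WT cells was 8.57-fold with passage (log2 change -3.10 ± 0.11, adjusted p = 2.38e-11) and 6.04-fold with differentiation (log2 change -2.60 ± 0.10, adjusted p = 4.03e-11). In dKO cells it fell less with passage (log2 change -0.81 ± 0.10, adjusted p = 3.62e-05), and the change with differentiation was not called (log2 change -0.24 ± 0.10, adjusted p = 0.146). dKO exceeded WT 6.30-fold at passage 4 (log2 change 2.66 ± 0.11, adjusted p = 3.38e-11) and 6.59-fold at day 28 (log2 change 2.72 ± 0.10, adjusted p = 8.89e-12). The change differed between genotypes for both passage (difference 2.29 ± 0.14, adjusted p = 5.57e-08) and differentiation (difference 2.36 ± 0.14, adjusted p = 9.51e-09). Among the members, called differences of this kind, with more than 1 on the log2 scale, were higher for 3 and lower for 4 of 39 with passage, 17.9% against 15.3% of all genes (7.61% higher, 7.71% lower). With differentiation they were higher for 7 and lower for 3, 25.6% against 20.2% of all genes (10.7% higher, 9.48% lower).

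SLC2A3 (GLUT3, a transporter of high affinity that neurons are known to use) differed in the same direction. It had 113 and 114 CPM (WT) against 186 and 153 CPM (dKO) at passage 2, and 36.0 and 40.9 CPM (WT) against 199.9 and 188 CPM (dKO) at passage 4. At day 28, SLC2A3 had 65.8 and 59.7 CPM (WT) against 248 and 508 CPM (dKO). No dKO sample overlapped a WT sample, and the 2 dKO-D28 samples differed from each other 2.05-fold. dKO exceeded WT at passage 4 (log2 change 2.33 ± 0.32, adjusted p = 0.000369) and at day 28 (log2 change 2.60 ± 0.29, adjusted p = 8.13e-05), and at day 28 it was 1.99 to 3.02 on the log2 scale over all alternatives run. The rise in dKO cells with differentiation (log2 change 1.16 ± 0.30, adjusted p = 0.045) was lost in 10 of 12 fits that left out a sample. The difference between genotypes in the change with passage (1.76, adjusted p = 0.0284) was lost in 7 of 12 such fits. SLC2A1 made up 61.9 to 87.2% of the CPM per kb of the 2 transporters in every sample.

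SLC16A1 (MCT1), which carries lactate and pyruvate across the membrane, had 181 and 207 CPM (WT) against 168 and 193 CPM (dKO) at passage 2, and 138 and 133 CPM (WT) against 167 and 177 CPM (dKO) at passage 4. At day 28, SLC16A1 had 75.3 and 72.6 CPM (WT) against 137 and 168 CPM (dKO). WT-D28 cells were the lowest group. It fell in WT cells with differentiation (log2 change -1.40 ± 0.13, adjusted p = 3.42e-07) and was higher in dKO-D28 than in WT-D28 cells (log2 change 1.05 ± 0.12, adjusted p = 1.54e-06), with a difference in change between genotypes of 1.16 ± 0.18 (adjusted p = 0.000137). SLC16A3 (MCT4), the lactate exporter of glycolytic cells, lay between 8.94 and 40.8 CPM and was called in no comparison; its 40.8 CPM in dKO-D28 sample 1 stood against 14.2 CPM in sample 2.

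**Figure D4:**
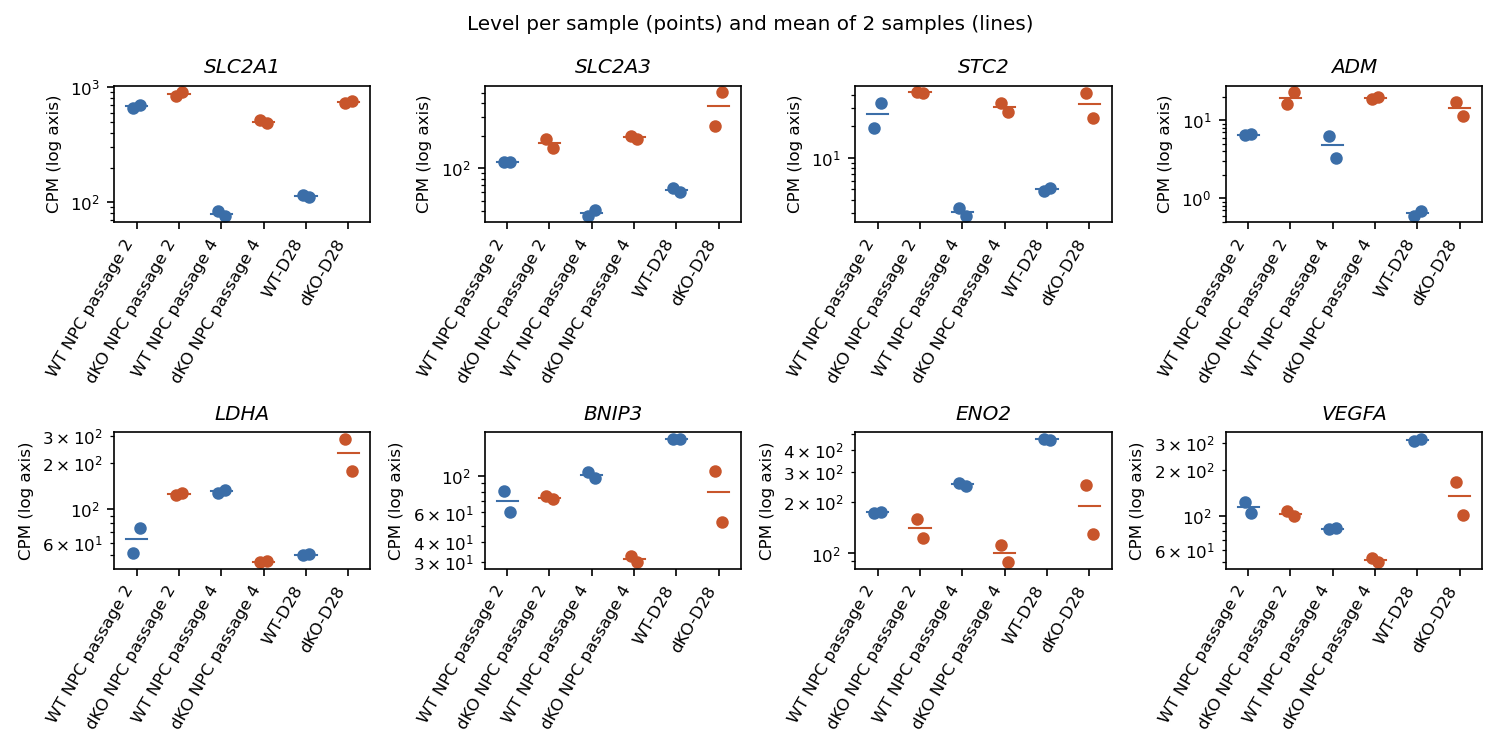
CPM on a log axis of 8 members in the 6 groups; points are samples, lines the mean of 2 samples, blue WT and orange dKO. SLC2A1, SLC2A3, STC2 and ADM are lower in WT than in dKO cells at passage 4 and day 28, LDHA is lower in dKO cells at passage 4 and higher at day 28, and BNIP3, ENO2 and VEGFA are lower in dKO cells at both.

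Among the 9 genes of upper glycolysis, from HK1 to TPI1, 4 were lower and 0 higher in dKO than in WT NPCs at passage 4, where 24.3% of all genes were lower. At day 28, 3 were lower and 0 higher, near the 26.7% of all genes that were lower. In WT-D28 cells 6 were higher than in WT NPCs and 0 lower, against 23.2% of all genes higher. Hexokinase traps glucose in the cell as its phosphate. HK1, the housekeeping form, had 92.4 and 124 CPM (WT) against 131 and 132 CPM (dKO) at passage 2, and 179 and 188 CPM (WT) against 132 and 139.6 CPM (dKO) at passage 4. At day 28, HK1 had 259 and 258 CPM (WT) against 144 and 100.1 CPM (dKO). It rose in WT cells with differentiation (log2 change 1.22 ± 0.16, adjusted p = 1.63e-05), and at day 28 dKO cells stood below WT cells without overlap (log2 change -1.08 ± 0.14, adjusted p = 8.6e-06). HK2, the inducible form, had 108 and 81.4 CPM (WT) against 60.6 and 67.5 CPM (dKO) at passage 2, and 52.8 and 46.5 CPM (WT) against 27.9 and 21.5 CPM (dKO) at passage 4. At day 28, HK2 had 95.7 and 99.2 CPM (WT) against 106 and 66.3 CPM (dKO). It was lower in dKO than in WT NPCs at passage 4 (log2 change -0.99 ± 0.22, adjusted p = 0.00191), and it fell with passage in both WT (log2 change -0.91 ± 0.23, adjusted p = 0.00581) and dKO NPCs (log2 change -1.37 ± 0.24, adjusted p = 0.00115). Of the CPM per kb of HK1 and HK2, HK2 held 43.3 to 57.5% in WT and 35.0 to 37.4% in dKO NPCs at passage 2 and 15.2 to 25.6% in the 4 samples of passage 4. At day 28 its share was 30.0 and 30.9% (WT) against 46.0 and 43.5% (dKO).

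Phosphofructokinase, the committed step, has a liver (PFKL), muscle (PFKM) and platelet (PFKP) form. PFKL had 139 and 152 CPM (WT) against 188 and 164 CPM (dKO) at passage 2, and 177 and 166 CPM (WT) against 203 and 169 CPM (dKO) at passage 4. At day 28, PFKL had 231 and 227 CPM (WT) against 202 and 179 CPM (dKO), and it was called only as a rise in WT cells with differentiation (log2 change 0.64 ± 0.13, adjusted p = 0.000741). PFKM had 137 and 141 CPM (WT) against 132 and 132 CPM (dKO) at passage 2, and 179.6 and 166 CPM (WT) against 126 and 101 CPM (dKO) at passage 4. At day 28, PFKM had 175 and 176 CPM (WT) against 136 and 108 CPM (dKO). It was lower in dKO cells at passage 4 (log2 change -0.60 ± 0.13, adjusted p = 0.00116) and day 28 (log2 change -0.52 ± 0.12, adjusted p = 0.00202). PFKP had 44.9 and 43.98 CPM (WT) against 65.0 and 57.1 CPM (dKO) at passage 2, and 47.5 and 36.0 CPM (WT) against 45.0 and 43.5 CPM (dKO) at passage 4. At day 28, PFKP had 122 and 119.7 CPM (WT) against 62.2 and 51.7 CPM (dKO). WT-D28 cells stood above all other groups: PFKP rose in WT cells with differentiation (log2 change 1.44 ± 0.17, adjusted p = 4.82e-06) and not measurably in dKO cells (log2 change -0.10 ± 0.16, adjusted p = 0.76), a difference of -1.54 ± 0.24 (adjusted p = 0.000132). PFKP held 23.7 and 23.9% of the family's CPM per kb in WT-D28 cells and 10.1 to 17.5% in the other samples.

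GPI, which turns glucose phosphate into fructose phosphate, ranged from 75.9 to 168 CPM and differed between genotypes at no stage. ALDOA, the general aldolase, had 394 and 414 CPM (WT) against 446 and 464 CPM (dKO) at passage 2, and 279.6 and 282 CPM (WT) against 319 and 289 CPM (dKO) at passage 4. At day 28, ALDOA had 577 and 587 CPM (WT) against 586 and 458 CPM (dKO). It was lower at passage 4 than at passage 2 in WT (log2 change -0.54 ± 0.12, adjusted p = 0.00233) and dKO NPCs (log2 change -0.58 ± 0.12, adjusted p = 0.00239), and after a correction for the GC content and length of genes the WT value was -0.02. ALDOC, the aldolase of brain and mainly of astrocytes, had 16.7 and 27.9 CPM (WT) against 25.9 and 23.7 CPM (dKO) at passage 2, and 26.4 and 15.2 CPM (WT) against 6.46 and 7.97 CPM (dKO) at passage 4. At day 28, ALDOC had 68.8 and 66.4 CPM (WT) against 69.9 and 12.9 CPM (dKO). dKO-D28 sample 1 was level with WT-D28 cells and sample 2 was far below, and ALDOC was called in no comparison (at day 28, log2 change -0.74 ± 0.63, adjusted p = 0.365). TPI1, which interconverts the triose phosphates, had 309 and 331 CPM (WT) against 336 and 385 CPM (dKO) at passage 2, and 512 and 408 CPM (WT) against 279 and 227 CPM (dKO) at passage 4. At day 28, TPI1 had 529 and 499 CPM (WT) against 514 and 359 CPM (dKO). It was lower in dKO than in WT NPCs at passage 4 (log2 change -0.85 ± 0.16, adjusted p = 0.000711), and its change with passage differed between genotypes by -1.02 ± 0.24 (adjusted p = 0.00767). PFKFB3 and PFKFB4 set the level of the sugar phosphate that activates phosphofructokinase. PFKFB3 (54.3 to 117 CPM) was lower in dKO cells at passage 4 (log2 change -0.49 ± 0.17, adjusted p = 0.0261) and day 28 (log2 change -0.48 ± 0.16, adjusted p = 0.0178), and PFKFB4 (15.0 to 83.0 CPM) differed between genotypes at no stage.

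**Figure D5:**
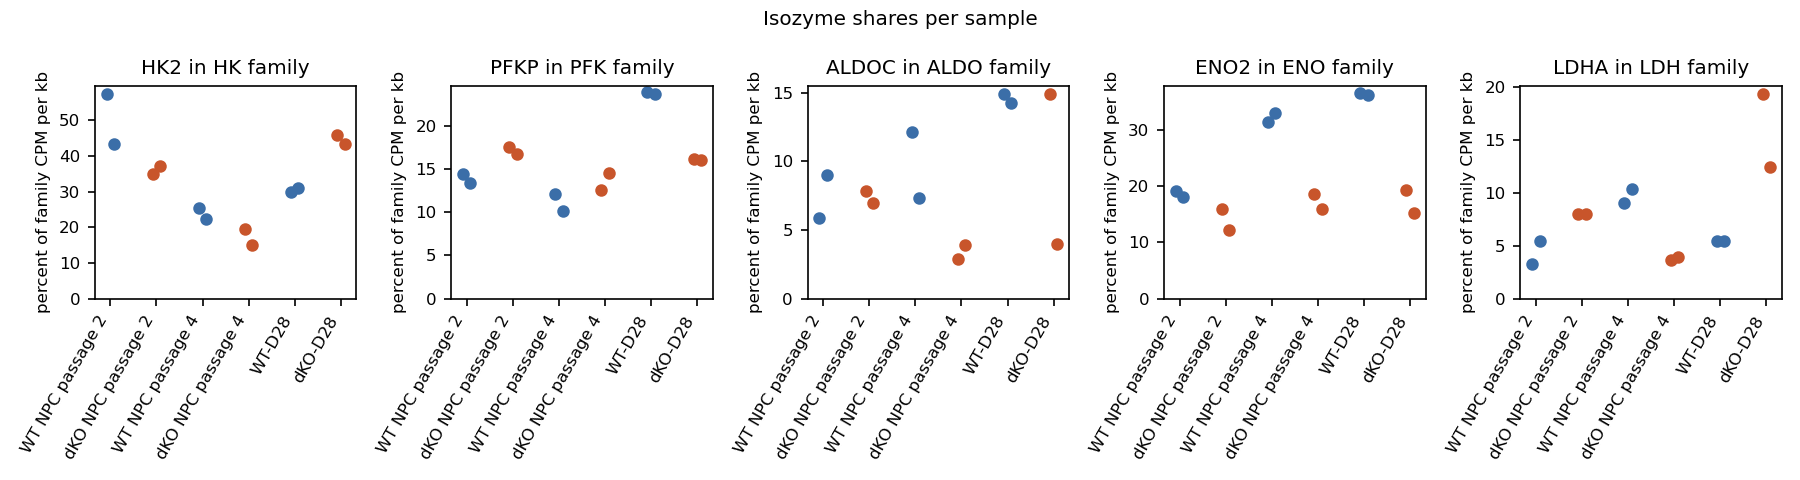
Share of HK2, PFKP, ALDOC, ENO2 and LDHA in the summed CPM per kilobase of exon of their isozyme family, in percent from 0, for each sample (points; blue WT, orange dKO). The ENO2 share is 31.4 to 36.6% in WT cells at passage 4 and day 28 and 15.2 to 19.2% in dKO cells, and the LDHA share in dKO-D28 cells, 12.4 and 19.3%, is above that of all other samples.

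In lower glycolysis, ENO2 had the largest fold changes between genotypes at passage 4 and day 28. Enolase makes phosphoenolpyruvate, and ENO2 is its neuronal form. It had 173 and 174 CPM (WT) against 159.5 and 122 CPM (dKO) at passage 2, and 257 and 249 CPM (WT) against 112 and 88.6 CPM (dKO) at passage 4. At day 28, ENO2 had 468 and 458 CPM (WT) against 249.9 and 131 CPM (dKO). dKO samples lay below WT samples at each stage; the difference was called at passage 4 (log2 change -1.33 ± 0.27, adjusted p = 0.00277) and at day 28 (log2 change -1.28 ± 0.25, adjusted p = 0.00221) but not at passage 2 (log2 change -0.31 ± 0.30, adjusted p = 0.715). It rose in WT cells with differentiation (log2 change 1.41 ± 0.28, adjusted p = 0.00287), while the dKO difference was not called, with dKO-D28 sample 1 at 1.91-fold the level of sample 2. All 8 tested neuron markers were lower in dKO cells at passage 4 (median -2.91) and at day 28 (median -2.32), in the same samples as ENO2, and their part in its value was not tested. ENO1, the general enolase, had 891 and 966 CPM (WT) against 1027 and 1081 CPM (dKO) at passage 2, and 684 and 617 CPM (WT) against 594 and 569.7 CPM (dKO) at passage 4. At day 28, ENO1 had 987 and 980.4 CPM (WT) against 1278 and 888 CPM (dKO). It differed between genotypes at no stage and fell with passage in WT (log2 change -0.52 ± 0.14, adjusted p = 0.00658) and dKO NPCs (log2 change -0.86 ± 0.14, adjusted p = 0.000359).

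PGAM1, the phosphoglycerate mutase, had 141 and 179.6 CPM (WT) against 160.3 and 229 CPM (dKO) at passage 2, and 179 and 217 CPM (WT) against 95.5 and 121 CPM (dKO) at passage 4. At day 28, PGAM1 had 179 and 187 CPM (WT) against 125 and 165 CPM (dKO). Sample 2 was the higher in all 6 groups, and replicate numbers carry no stated meaning. It was lower in dKO than in WT NPCs at passage 4 (log2 change -0.87 ± 0.19, adjusted p = 0.00194), and its change with passage differed between genotypes by -1.13 ± 0.28 (adjusted p = 0.0117). GAPDH (1811 to 2894 CPM), the dehydrogenase that opens the energy-yielding phase of the pathway, was lower in dKO NPCs at passage 4 (log2 change -0.37 ± 0.09, adjusted p = 0.00395) and slightly higher in dKO-D28 cells (log2 change 0.24 ± 0.09, adjusted p = 0.039), a call lost in 5 of 12 fits that left out a sample and after the GC and length correction (0.06, adjusted p = 0.734). Its count is uncertain: 17.6% of its exonic bases are shared with an antisense gene that holds 51135 counts, and the strand setting of the counting was not stated. PGK1 (191 to 587 CPM) was called in no comparison, and its dKO-D28 samples, at 587 and 245 CPM, lay on either side of the WT-D28 samples, at 416 and 443 CPM. PKM, the pyruvate kinase (770 to 1247 CPM), was higher in dKO NPCs at passage 4 (log2 change 0.60 ± 0.10, adjusted p = 8.01e-05), but after the GC and length correction the value was -0.13 (adjusted p = 0.350), so its direction depends on that choice.

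Among the lactate dehydrogenases, LDHA differed between genotypes in opposite directions at the 2 later stages. LDHA, the muscle form that favours lactate production, had 51.3 and 74.8 CPM (WT) against 122 and 126 CPM (dKO) at passage 2. At passage 4, LDHA had 126 and 133 CPM (WT) against 44.5 and 45.4 CPM (dKO). At day 28, LDHA had 49.5 and 50.5 CPM (WT) against 286 and 175 CPM (dKO). WT and dKO samples did not overlap at any stage, with dKO above WT at passage 2 and day 28 and below at passage 4. LDHA was 2.88-fold lower in dKO cells at passage 4 (log2 change -1.53 ± 0.20, adjusted p = 4.13e-05) and 4.61-fold higher at day 28 (log2 change 2.20 ± 0.19, adjusted p = 5.11e-07), and the passage 2 value was not called (log2 change 0.93 ± 0.25, adjusted p = 0.0685). With passage it rose in WT (log2 change 0.99 ± 0.23, adjusted p = 0.00472) and fell in dKO NPCs (log2 change -1.46 ± 0.22, adjusted p = 0.000498), a difference of -2.45 ± 0.32 (adjusted p = 0.000122), and its change with differentiation differed by 1.28 ± 0.31 (adjusted p = 0.0078), which was 0.93 (adjusted p = 0.121) without WT NPC sample 2 of passage 2. The direct contrast of day 28 against passage 4 was not tested. Genes named as LDHA pseudogenes, 6 in all, held 5.68% as many counts as LDHA, and the handling of reads that map to several places was not stated.

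LDHB, the heart form that favours lactate use, had 739 and 645 CPM (WT) against 697 and 720.2 CPM (dKO) at passage 2, and 629.8 and 569.6 CPM (WT) against 577 and 542 CPM (dKO) at passage 4. At day 28, LDHB had 428 and 435 CPM (WT) against 592 and 611 CPM (dKO). It fell in WT cells with differentiation (log2 change -0.68 ± 0.10, adjusted p = 5.01e-05) and was higher in dKO-D28 than in WT-D28 cells (log2 change 0.48 ± 0.10, adjusted p = 0.000618). After the GC and length correction that value was 0.11 (adjusted p = 0.434). LDHB held 80.7% or more of the family's CPM per kb in every sample, and LDHA held 5.42 and 5.44% in WT-D28 cells against 19.3 and 12.4% in dKO-D28 cells. The pyruvate dehydrogenase kinases restrain the use of pyruvate in the mitochondrion. PDK1 had 31.7 and 37.6 CPM (WT) against 13.8 and 15.0 CPM (dKO) at passage 4, where it was lower in dKO NPCs (log2 change -1.27 ± 0.32, adjusted p = 0.0069). After the GC and length correction this was not called (-0.65, adjusted p = 0.066). It rose in WT cells with differentiation (log2 change 1.17 ± 0.33, adjusted p = 0.0138), and in dKO-D28 cells it had 77.5 CPM in sample 1, level with WT-D28, and 36.1 CPM in sample 2. PDK3 (5.57 to 15.4 CPM) was higher in dKO-D28 cells (log2 change 1.20 ± 0.29, adjusted p = 0.00218).

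BNIP3 and BNIP3L mark mitochondria for removal. BNIP3 had 80.9 and 60.1 CPM (WT) against 75.3 and 72.4 CPM (dKO) at passage 2, and 105 and 97.0 CPM (WT) against 33.0 and 29.9 CPM (dKO) at passage 4. At day 28, BNIP3 had 167 and 168 CPM (WT) against 107 and 52.4 CPM (dKO). The genotypes overlapped at passage 2 and were apart afterwards, with dKO lower at passage 4 (log2 change -1.68 ± 0.28, adjusted p = 0.000762) and day 28 (log2 change -1.08 ± 0.25, adjusted p = 0.00441). The day 28 value was -0.64 without dKO-D28 sample 2 and -1.67 without sample 1. It rose in WT cells with differentiation (log2 change 1.28 ± 0.30, adjusted p = 0.00597), and its change with passage differed between genotypes by -1.78 ± 0.44 (adjusted p = 0.0172). BNIP3L (159 to 287 CPM) was lower in dKO NPCs at passage 4 (log2 change -0.68 ± 0.17, adjusted p = 0.00452) and not called at day 28. The prolyl hydroxylases EGLN1 and EGLN3 mark the hypoxia-inducible factors for destruction and are themselves induced by them. EGLN3 had only 7.70 and 3.67 CPM (WT) against 3.69 and 3.48 CPM (dKO) at passage 2, and 14.2 and 12.4 CPM (WT) against 3.46 and 2.66 CPM (dKO) at passage 4. At day 28, EGLN3 had 8.76 and 10.8 CPM (WT) against 9.54 and 8.55 CPM (dKO). It rose in WT NPCs with passage (log2 change 1.34 ± 0.40, adjusted p = 0.0138, and 0.325 without WT NPC sample 2 of passage 2) and was 4.28-fold lower in dKO NPCs at passage 4 (log2 change -2.10 ± 0.31, adjusted p = 3.82e-05), on 15 and 11 counts against 43 and 49. EGLN1 (48.7 to 121 CPM) was lower in dKO cells at passage 4 (log2 change -0.85 ± 0.13, adjusted p = 4.44e-05) and day 28 (log2 change -0.94 ± 0.12, adjusted p = 5.24e-06). KDM3A, a histone H3K9 demethylase induced by hypoxia (126 to 281 CPM), was lower in dKO cells at passage 4 (log2 change -0.59 ± 0.12, adjusted p = 0.00051, lost after the GC and length correction) and day 28 (log2 change -0.45 ± 0.11, adjusted p = 0.00245), and ANKRD37 (6.28 to 12.8 CPM), whose exons overlap another gene by 40.3%, was called in no comparison.

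The secreted factors held both the largest rises and a fall. STC2, a stanniocalcin that is also known as a target of the unfolded protein response, had 19.3 and 33.0 CPM (WT) against 42.1 and 41.8 CPM (dKO) at passage 2, and 3.30 and 2.79 CPM (WT) against 33.4 and 27.5 CPM (dKO) at passage 4. The passage 4 values of STC2 rested on 10 and 11 counts (WT) against 145 and 114 counts (dKO). At day 28, STC2 had 4.85 and 5.16 CPM (WT) against 41.5 and 23.8 CPM (dKO). It fell in WT cells with passage (log2 change -3.18 ± 0.41, adjusted p = 1.93e-05) and with differentiation (log2 change -2.45 ± 0.34, adjusted p = 2.3e-05), and dKO was 10.1-fold above WT at passage 4 (log2 change 3.33 ± 0.34, adjusted p = 8.67e-07) and 6.42-fold above at day 28 (log2 change 2.68 ± 0.26, adjusted p = 3.18e-07). The difference between genotypes in the change was 2.72 ± 0.49 for passage (adjusted p = 0.000792) and 2.07 ± 0.41 for differentiation (adjusted p = 0.00128), and the latter was lost without WT NPC sample 2 of passage 2 (1.56, adjusted p = 0.0624). ADM, the vasodilator peptide adrenomedullin, had 6.42 and 6.60 CPM (WT) against 16.2 and 23.0 CPM (dKO) at passage 2, and 6.27 and 3.30 CPM (WT) against 18.9 and 19.8 CPM (dKO) at passage 4. At day 28, ADM had 0.592 and 0.695 CPM (WT) against 17.2 and 11.4 CPM (dKO). WT-D28 cells had 5 and 7 counts and dKO-D28 cells 72 and 60. dKO was above WT at passage 4 (log2 change 2.06 ± 0.32, adjusted p = 5.71e-05) and day 28 (log2 change 4.39 ± 0.37, adjusted p = 5.69e-08), and ADM fell in WT cells with differentiation (log2 change -3.28 ± 0.58, adjusted p = 0.000256), with a difference between genotypes of 2.80 (adjusted p = 0.00325).

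STC1 had, beside its passage 2 values, 18.2 and 21.8 CPM (WT) against 67.8 and 72.9 CPM (dKO) at passage 4 and 12.6 and 11.5 CPM (WT) against 29.8 and 29.4 CPM (dKO) at day 28. dKO exceeded WT at passage 4 (log2 change 1.81 ± 0.21, adjusted p = 2.51e-06) and day 28 (log2 change 1.303 ± 0.21, adjusted p = 5.55e-05), and STC1 was the only member called in all 3 comparisons of genotypes. It fell with differentiation in both WT (log2 change -1.65 ± 0.26, adjusted p = 7.48e-05) and dKO cells (log2 change -2.14 ± 0.20, adjusted p = 3.56e-06). VEGFA, the angiogenic growth factor, had 123 and 105 CPM (WT) against 108 and 99.5 CPM (dKO) at passage 2, and 81.5 and 83.3 CPM (WT) against 53.3 and 49.5 CPM (dKO) at passage 4. At day 28, VEGFA had 311 and 321 CPM (WT) against 168 and 101 CPM (dKO). WT-D28 cells were highest: VEGFA rose in WT cells with differentiation (log2 change 1.48 ± 0.19, adjusted p = 3.47e-05), not measurably in dKO cells (log2 change 0.37 ± 0.19, adjusted p = 0.274), a difference of -1.11 ± 0.28 (adjusted p = 0.00796) that was -0.98 (adjusted p = 0.0592) without WT NPC sample 2 of passage 2. It was lower in dKO cells at passage 4 (log2 change -0.68 ± 0.19, adjusted p = 0.0101) and day 28 (log2 change -1.23 ± 0.17, adjusted p = 3.23e-05). VEGFA therefore stood opposite to STC1, STC2 and ADM in every called comparison of genotypes.

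CA12, a carbonic anhydrase of acid-base balance, had 28.2 and 15.4 CPM (WT) against 24.4 and 33.4 CPM (dKO) at passage 2, and 194 and 197 CPM (WT) against 103 and 108 CPM (dKO) at passage 4. At day 28, CA12 had 75.4 and 71.1 CPM (WT) against 33.6 and 8.55 CPM (dKO). It rose in WT NPCs with passage (log2 change 3.26 ± 0.60, adjusted p = 0.00457) and was lower in dKO-D28 than in WT-D28 cells (log2 change -1.84 ± 0.46, adjusted p = 0.0119), from -1.12 without dKO-D28 sample 2 to -3.09 without sample 1, and the call was lost without WT-D28 sample 1 (-1.79, adjusted p = 0.0551). The rise in WT cells with differentiation (log2 change 1.84 ± 0.63, adjusted p = 0.0474) was lost in 10 of 12 fits that left out a sample. NDRG1, a stress-response gene, had 10.3 and 13.9 CPM (WT) against 10.3 and 6.96 CPM (dKO) at passage 2, and 58.8 and 56.6 CPM (WT) against 27.2 and 28.7 CPM (dKO) at passage 4. At day 28, NDRG1 had 21.2 and 22.3 CPM (WT) against 36.7 and 32.9 CPM (dKO). It rose with passage in WT (log2 change 2.19 ± 0.23, adjusted p = 2.07e-06) and dKO NPCs (log2 change 1.70 ± 0.24, adjusted p = 0.000168), and at day 28 it was above passage 2 NPCs in WT (log2 change 0.79 ± 0.24, adjusted p = 0.014) and dKO cells (log2 change 2.01 ± 0.24, adjusted p = 3.73e-05). Its change with differentiation differed between genotypes by 1.22 ± 0.37 (adjusted p = 0.0195), and by 0.93 (adjusted p = 0.297) without WT NPC sample 2 of passage 2. Like LDHA it was lower in dKO cells at passage 4 (log2 change -1.04 ± 0.16, adjusted p = 4.44e-05) and higher at day 28 (log2 change 0.68 ± 0.15, adjusted p = 0.00127). P4HA1 and P4HA2 hydroxylate collagen prolines. P4HA2 had 9.24 and 8.38 CPM (WT) against 24.0 and 22.0 CPM (dKO) at passage 4. It was higher in dKO NPCs there (log2 change 1.39 ± 0.27, adjusted p = 0.000548), in the same samples in which mesenchymal markers summed higher, and their part in its value was not tested. P4HA1 (48.8 to 130 CPM) was called in no comparison.

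Of the 11 oxygen-sensing and HIF pathway factors, 3 were higher and 2 lower at passage 4, near the shares of all genes (25.3 and 24.3%), and 5 were higher and 3 lower at day 28 (27.5 and 26.7% of all genes). HIF1A, the oxygen-regulated subunit, had 207 and 273 CPM (WT) against 346 and 399 CPM (dKO) at passage 2, and 206 and 274 CPM (WT) against 253 and 269 CPM (dKO) at passage 4. At day 28, HIF1A had 137 and 153 CPM (WT) against 242 and 264 CPM (dKO). It was higher in dKO cells at passage 2 (log2 change 0.62 ± 0.16, adjusted p = 0.0432) and day 28 (log2 change 0.81 ± 0.14, adjusted p = 0.000162) and not called at passage 4 (log2 change 0.12 ± 0.14, adjusted p = 0.504). HIF1A protein, which oxygen controls, was not measured. EPAS1 (HIF2A) had 5.57 and 6.26 CPM in WT-D28 cells and 7.15 and 41.6 CPM in dKO-D28 cells, where it was higher (log2 change 2.07 ± 0.64, adjusted p = 0.0267) with sample 2 far above the other 3. VHL, which targets both factors for degradation, was lower in dKO cells at passage 4 (log2 change -0.40 ± 0.11, adjusted p = 0.00813) and day 28 (log2 change -0.59 ± 0.11, adjusted p = 0.000256), and EGLN2 was called in no comparison. The largest called rise among these factors at passage 4 was that of CITED2, a HIF competitor (log2 change 1.47 ± 0.14, adjusted p = 3.34e-07), and the largest called fall at both stages that of ARNT2, the neural partner subunit (log2 change -1.15 ± 0.11, adjusted p = 2.35e-07 at passage 4 and log2 change -1.18 ± 0.10, adjusted p = 7.5e-08 at day 28).

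Of 30 tested among 33 other hypoxia-induced genes, 10 were higher and 9 lower in dKO NPCs at passage 4, against 25.3 and 24.3% of all genes. In dKO-D28 cells 12 were higher and 5 lower, against 27.5 and 26.7%. The largest rise at passage 4 was that of LOXL2, a lysyl oxidase of the extracellular matrix (log2 change 3.85 ± 0.21, adjusted p = 5.98e-10), and the largest fall that of PPFIA4 (log2 change -2.49 ± 0.67, adjusted p = 0.0177). At day 28 they were BHLHE40, a transcriptional repressor of the circadian clock (log2 change 2.37 ± 0.20, adjusted p = 6.58e-08), and the chemokine receptor CXCR4 (log2 change -2.04 ± 0.13, adjusted p = 3.51e-09). BHLHE40 was already among the 4 genes of this list higher in dKO NPCs at passage 2 (log2 change 2.07 ± 0.33, adjusted p = 0.00307). In WT cells 8 were higher and 7 lower at day 28 than in NPCs, and in dKO cells 2 were higher and 5 lower, against 23.2 and 22.9% of all genes in WT and 4.30 and 5.25% in dKO cells.

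Of 15 tested among 27 other isozymes and transporters of sugar metabolism, 6 were higher and 2 lower in dKO NPCs at passage 4, against 25.3 and 24.3% of all genes. In dKO-D28 cells 7 were higher and 4 lower, against 27.5 and 26.7%. At passage 4 the largest changes were those of PCK2, the mitochondrial phosphoenolpyruvate carboxykinase (log2 change 1.72 ± 0.33, adjusted p = 0.000384), and SLC16A7, the monocarboxylate transporter MCT2 (log2 change -1.80 ± 0.44, adjusted p = 0.00297). At day 28 the largest rise was that of PDK4, a pyruvate dehydrogenase kinase (log2 change 2.17 ± 0.36, adjusted p = 8.47e-05). The WT samples of day 28 and passage 4 enter both the comparison of genotypes and that of stages, so these values are not independent of each other.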

How the data were processed

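RNA from 12 samples in 6 groups of 2 was sequenced from libraries made with a TruSeq kit. The authors aligned reads to hg38 with HISAT2 2.0.4, handled alignments with SAMtools 1.3.1 and deposited HTSeq 0.6.0 counts per gene without normalization. The strand setting was not given in the sources used here.

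Counts were fitted in edgeR 4.0.16 (R 4.3.3) as 6 group means over all 12 samples, for genes with a mean of 20 or more counts, with TMM scaling (factors 0.934 to 1.06) and robust quasi-likelihood tests. CPM use the scaled library sizes, and a rate per kilobase uses exon lengths from GENCODE v44, which holds 98.7% of the gene identifiers. Differences between genotypes in a change were tested as interactions and called past 1 on the log2 scale. With 2 samples against 2, the exact two-sided permutation p of a single gene cannot go below 0.333, so calls rest on spread shared across genes. Code was tested on simulated data with known changes.

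Members and lists were chosen with earlier results of these data known. All members could be named. Values per sample were given for the 4 largest called rises and falls of each comparison, for the isozyme families and for members with a called interaction. From each other list, the largest called rise and fall per comparison were named, and HIF1A, EPAS1, VHL and EGLN2. One such gene is not reported here. Alternatives were DESeq2 1.42.0, other filters on low counts, correction for GC content and length (10 bins, pseudocount 0.1) in place of the EDASeq step of the study, a replicate block, fits on the compared samples only, the study's call rule (a p below 0.05 without adjustment, with more than a 2-fold change), and leaving out each sample.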

Additional observations from a re-analysis of the deposited data

Results flagged for a closer look

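Each value here is a difference between genotypes in the same change, dKO minus WT on the log2 scale, that passed edgeR's test of the difference itself at an adjusted p below 0.05 and exceeded 1. For differentiation from NPCs of passage 2 to day 28, the glucose transporters differed by 2.36 (SLC2A1) and 2.02 (SLC2A3), and the lactate transporter SLC16A1 by 1.16. Among enzymes, HK1 differed by -1.33, PFKP by -1.54 and LDHA by 1.28. Among hypoxia-responsive genes, ADM differed by 2.80, STC2 by 2.07, NDRG1 by 1.22 and VEGFA by -1.11.

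For passage 2 to passage 4, SLC2A1 differed by 2.29, SLC2A3 by 1.76 and STC2 by 2.72. LDHA differed by -2.45, BNIP3 by -1.78, PGAM1 by -1.13 and TPI1 by -1.02. SLC2A1, SLC2A3, STC2 and LDHA passed in both comparisons, which share the NPCs of passage 2, and LDHA had opposite signs in them. When each sample was left out in turn, the passage value of SLC2A3 failed in 7 of 12 fits and those of TPI1, PGAM1 and BNIP3 in 4 each, where TPI1 fell to -0.85 at the nearest to 0 and PGAM1 to -0.85. The differentiation values of LDHA, NDRG1 and VEGFA failed in 2 of 12 fits each, among them LDHA without dKO-D28 sample 1 (0.90) and VEGFA without dKO-D28 sample 2 (-0.79), and that of STC2 in 1.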

How the results depend on the processing

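Of 123 called values of members, 117 stayed called with DESeq2 and 107 with the correction for GC content and gene length, where PKM reversed: -0.13 for dKO minus WT at passage 4 (-0.13 also with the replicate block) and 0.078 for WT passage 4 minus passage 2 (0.077). Under the study's call rule 73 of the 123 stayed called and 50 did not. Of members called higher at passage 2, 7 passed on the compared samples alone, 4 with a minimum of 1 count in any sample or with DESeq2, and 3 with the correction, with or without the block, or under the study's call rule. That rule, an unadjusted p below 0.05 with a fold change above 2, gave 6 lower at passage 4, 6 lower at day 28, 7 higher in WT-D28 cells than NPCs, 3 higher and 4 lower with WT passage, 2 higher and 7 lower with dKO passage, and 5 and 7 lower in the differences for differentiation and passage. With 10 counts required in every sample, 7 were higher at day 28. Fits on the compared samples alone gave 1 higher in dKO-D28 cells than NPCs, 2 higher and 26 lower with dKO passage, and 8 lower in the passage difference. A minimum of 1 count gave 6 higher in dKO-D28 cells than NPCs and 5 lower in the differentiation difference (5 with DESeq2), and DESeq2 or the correction 2 higher with dKO passage. The correction gave 3 lower in dKO-D28 cells than NPCs, with or without the block. The cause was not tested.

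Replicate numbers did not pair samples: deviations of equally numbered samples correlated at -0.058 to 0.194. The replicate block kept 121 of the 123 calls, lost CA12 in WT differentiation (adjusted p = 0.0594) and SLC2A3 in dKO differentiation (adjusted p = 0.0688), and gave 2 members lower in dKO-D28 cells than NPCs.

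Leaving out single samples gave 1 to 7 members higher and 0 lower at passage 2, 7 to 8 higher and 13 to 21 lower at passage 4, 10 to 17 and 8 to 21 at day 28, 10 to 18 and 5 to 8 with WT differentiation, 1 to 18 and 1 to 8 with dKO differentiation, 3 to 10 and 5 to 13 with WT passage, 1 to 2 and 6 to 25 with dKO passage, 5 to 8 and 3 to 11 in the differentiation difference, and 2 to 3 and 1 to 8 in the passage difference. Without dKO-D28 sample 1, 11 were lower in the differentiation difference, and without either dKO-D28 sample 8 were lower in the passage difference and 10 higher with WT passage. Without WT NPC sample 2 of passage 2, WT passage gave 3 higher and 5 lower, and without WT NPC sample 2 of passage 4, 7 lower. The passage difference gave 2 lower without WT NPC sample 1 of passage 2 or dKO NPC sample 2 of passage 4 and 1 without dKO NPC sample 2 of passage 2. Either dKO NPC sample of passage 2 left out gave 1 higher in dKO differentiation, and without sample 1, 2 were higher at passage 2. Depth limits the passage 2 NPCs most: their floor of 3 counts lies at 2.09 to 3.85 CPM.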

Other observations

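Of 27 tested genes of the tricarboxylic acid cycle and pyruvate entry, 3 were higher and 4 lower in dKO NPCs at passage 4, against 25.3 and 24.3% of all genes, and 2 higher and 8 lower in dKO-D28 cells, against 27.5 and 26.7%. The largest called rise was in SUCLG2, a succinyl-CoA ligase subunit (log2 change 0.86 ± 0.16, adjusted p = 0.000278 at passage 4 and log2 change 1.62 ± 0.15, adjusted p = 1.78e-07 at day 28), and the largest fall in PC, pyruvate carboxylase (log2 change -1.07 ± 0.14, adjusted p = 1.17e-05 and log2 change -1.42 ± 0.13, adjusted p = 1.69e-07). In WT cells 8 were higher and 4 lower at day 28 than in NPCs, and in dKO cells 0 were higher and 2 lower, against 23.2 and 22.9% of all genes in WT and 4.30 and 5.25% in dKO cells. Of 7 tested genes of the pentose phosphate pathway, 2 were higher and 0 lower in dKO NPCs at passage 4, of which the larger was RPIA, the ribose phosphate isomerase (log2 change 1.26 ± 0.22, adjusted p = 0.000164), which was also the only one called at day 28 (log2 change 0.47 ± 0.18, adjusted p = 0.0354).

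Genes of the amino acid and unfolded protein stress responses were mostly higher in dKO than in WT NPCs at passage 4. There 9 of 12 tested among 14 were higher and 0 lower, against 25.3% of all genes higher. These counts compare genotypes and not stages. The largest difference was that of ATF3, a stress-induced transcription factor (log2 change 4.57 ± 0.19, adjusted p = 5.53e-11 at passage 4 and log2 change 2.86 ± 0.14, adjusted p = 1.48e-10 at day 28). ATF3 had 59.0 and 59.4 CPM (WT) against 58.4 and 63.3 CPM (dKO) at passage 2. At passage 4 it had 5.28 and 4.32 CPM (WT) against 118 and 108 CPM (dKO). With passage it fell in WT NPCs (log2 change -3.64 ± 0.23, adjusted p = 1.13e-08) and rose less in dKO NPCs (log2 change 0.89 ± 0.15, adjusted p = 0.0006). At day 28, 4 genes of this list were higher, against 27.5% of all genes, and 1, the kinase-like regulator TRIB3, was lower (log2 change -0.54 ± 0.20, adjusted p = 0.0311). In the same samples at passage 4, mesenchymal markers were higher (4 of 6 tested) and all 8 tested neuron markers lower, and their part in these values was not tested. None of 7 endothelial markers reached the mean count needed for a test, and the pluripotency factors POU5F1 and NANOG had no counts in any sample. Neural progenitor markers (7 genes) summed to 3223 to 7430 CPM, of which VIM held 1823 to 4787 CPM. This range hides differences of single genes. PAX6 had 11.7 and 11.5 CPM in WT-D28 cells against 186.5 and 351 CPM in dKO-D28 cells. FABP7 had 1861 and 1700 CPM in WT NPCs at passage 4 against 85.8 and 78.0 CPM in dKO NPCs.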
